A study of Homo sapiens with 60 samples.

Results

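Hyaluronan is a long unbranched sugar polymer of the extracellular matrix. Hyaluronan synthases in the plasma membrane build it from UDP-sugars and push it out of the cell, secreted and membrane proteins cut it into shorter chains, and receptors such as CD44 bind it. In brain tissue it is a main part of the matrix, and gliomas are known for a matrix rich in it. The 8 genes described here were chosen by name for these roles, with earlier results on these libraries in view, among them falls of CEMIP with dose. They are the synthases HAS1, HAS2 and HAS3, CEMIP (a secreted protein needed for hyaluronan breakdown at the cell surface), CEMIP2 (a membrane protein related to CEMIP), the hyaluronidases HYAL1 and HYAL2, and CD44. All 8 were found by symbol among the 60675 genes of the count table. Because of that choice, the member genes' values are given as a description: a change is called where the adjusted p over all tested genes was below 0.05, and no p is given for a member in the comparisons below.

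SW1783, an established human astrocytoma cell line, was exposed for 24 h to dried extracts made with 70% ethanol from herbs or herbal formulas of Korean medicine, and mRNA was sequenced in 60 libraries. The groups with 3 libraries each were Astragali Radix (astragalus root) at 8.8, 44 and 220 µg/mL, and Cinnamomi Cortex (cinnamon bark) and the formulas Sibjeondaebo-tang, Palmul-tang, Sagunja-tang and Samul-tang at 20, 100 and 500 µg/mL, which are called low, medium and high. Rehmanniae Radix Preparata (prepared rehmannia root) had 1 library at each of 20, 100 and 500 µg/mL. The vehicle group of 3 libraries received 0.1% DMSO by its labels, while the text of the series gives 2% DMSO. By that text, extracts whose IC20 lay under 500 µg/mL were used at the IC20 and at 5-fold dilutions of it, so the top dose of Astragali Radix is lower than that of the others. Traditionally, Palmul-tang is Sagunja-tang and Samul-tang combined. Sibjeondaebo-tang contains Palmul-tang together with Astragali Radix and Cinnamomi Cortex. Nothing in the labels says that the libraries of a group came from separate cultures, so the errors measure the spread between libraries, which may be technical.

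Library totals ran from 19793387 to 37152410 expected counts. Of the markers by which astrocytes are usually defined, GFAP, S100B, SOX2, AQP4 and ALDH1L1 had at most 8 counts in any library. VIM at 3554 to 8133 counts scaled by library total (CPM) and SLC1A3 at 13.0 to 28.4 CPM were present, as were COL1A1 at 1303 to 14380 CPM and PDGFRB at 36.6 to 65.3 CPM. Libraries 1 and 2 of low-dose Astragali Radix stood apart from the third: their log2 values deviated from the other groups' mean with an SD across genes of 0.638 and 0.867, against 0.284 in library 3, and trends on transcript length and GC content made up 15.7% and 38.0% of that deviation's variance, against 0.755% in library 3. They enter the shared estimate of spread. Without both, more members, and more of all tested genes, were called against the vehicle, with dose and between formulas. The named changes at the low dose and dose steps of Astragali Radix are given with and without them below. The titles of all 60 libraries begin with BatchF. The vehicle libraries carry another sample code (F1) than the extract libraries (12 to 15), and what the codes stand for is not stated. An effect shared by all extracts and a difference that goes with the code therefore cannot be told apart. All doses of an extract share a code, and all 18 comparisons with the vehicle share its 3 libraries.

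In vehicle-treated cells the receptor was far more abundant than the enzymes. CD44 had 2984, 2879 and 3009 CPM in the 3 vehicle libraries. HAS2, the synthase that makes long chains, had 93.1, 94.6 and 93.7 CPM, and HAS3, known for shorter chains, had 52.0, 53.0 and 52.8 CPM. The 3 vehicle libraries lay close together for both synthases. CEMIP had 52.4, 50.4 and 50.1 CPM, CEMIP2 123, 120.3 and 127 CPM, and HYAL2, a hyaluronidase anchored to the cell surface, 67.8, 64.2 and 64.0 CPM. HYAL1, the lysosomal hyaluronidase, was near the limit of detection at 0.371, 0.276 and 0.301 CPM. HAS1 had 0 to 7 counts in the 60 libraries and did not pass the filter on low counts, so 7 of the 8 genes were tested. Per kb of exon, the level of CD44 in the vehicle was 296 CPM, followed by HAS2 at 22.4, HYAL2 at 14.4, CEMIP2 at 12.8, HAS3 at 9.94, CEMIP at 6.69, HYAL1 at 0.101 and HAS1 at 0.0123 CPM. With the longest transcript as the length, CEMIP2 at 18.9 CPM per kb came before HYAL2 at 16.1, so the order of those neighbours rests on the length used. CPM are shares of each library's RNA: fewer cells and less RNA per cell cannot be told apart in them.

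On GRCh38 (GENCODE v29 gene bodies) HAS1 lies at chr19:51713112-51723994, HAS3 at chr16:69105564-69118719, CEMIP at chr15:80779343-80951776, CEMIP2 at chr9:71683366-71816690, HYAL1 at chr3:50299889-50312381, HYAL2 at chr3:50317790-50322906 and CD44 at chr11:35138870-35232402. Some of these genes share exon bases with neighbours. HYAL2 shares 509 of its 4545 exon bases with TUSC2 on the same strand, so reads there could be assigned to either gene. On the opposite strand HAS2 shares 201 exon bases with HAS2-AS1, HAS3 shares 365 with CHTF8, and CEMIP shares 224 with MESD. The library kit keeps strand, but the strand setting of the counting is not given in the sources used here. HAS2-AS1 itself was at 2.85 ± 0.439 CPM in vehicle libraries (mean ± SD, n = 3), a small fraction of HAS2.

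The promoters of 3 member genes are shown because these genes had the largest changes: HAS3 and HYAL2 at the top dose of Astragali Radix, and CEMIP with the dose of 3 formulas. Each is the RefSeq stretch on GRCh38.p14 from 250 bases before to 50 bases after the gene's start, 5′ to 3′ on the gene's strand. HAS3 is at chr16:69107290-69107589 (plus strand), HYAL2 at chr3:50322696-50322995 (minus strand) and CEMIP at chr15:80779120-80779419 (plus strand). Capitals mark matches, on either strand, to the motifs searched. The TATA box was searched as TATAAA. The GC box was searched as GGGCGG. The E-box, bound by proteins of the basic helix-loop-helix family, was CACGTG. The AP-1 site was TGANTCA. The core of the site of the aryl hydrocarbon receptor was TNGCGTG.
HAS3: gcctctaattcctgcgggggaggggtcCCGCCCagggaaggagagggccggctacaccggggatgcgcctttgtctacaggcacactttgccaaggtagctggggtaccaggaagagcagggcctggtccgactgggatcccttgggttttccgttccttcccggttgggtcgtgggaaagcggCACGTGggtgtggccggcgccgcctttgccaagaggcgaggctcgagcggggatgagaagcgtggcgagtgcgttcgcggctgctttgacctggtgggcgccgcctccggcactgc
HYAL2: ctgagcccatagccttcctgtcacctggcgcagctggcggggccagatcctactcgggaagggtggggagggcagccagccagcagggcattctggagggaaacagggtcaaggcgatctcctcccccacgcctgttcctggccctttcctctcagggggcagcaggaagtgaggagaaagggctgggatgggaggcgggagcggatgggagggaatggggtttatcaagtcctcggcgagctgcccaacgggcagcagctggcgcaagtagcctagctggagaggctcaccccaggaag
CEMIP: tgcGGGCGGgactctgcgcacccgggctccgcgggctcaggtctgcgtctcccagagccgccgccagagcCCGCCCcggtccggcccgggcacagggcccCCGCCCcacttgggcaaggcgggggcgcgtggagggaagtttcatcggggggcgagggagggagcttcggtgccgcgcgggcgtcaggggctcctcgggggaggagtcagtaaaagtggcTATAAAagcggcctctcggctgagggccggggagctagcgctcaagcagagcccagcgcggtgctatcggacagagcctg
The table held promoters for 7 of the 8 genes (not HAS2). CEMIP had a TATA box 30 bases before its start, which 11.5% of the 35116 promoters of the table have somewhere in the window, and 3 GC boxes, a motif found in 45.0% of them. HAS3 had 1 GC box and 1 E-box, a motif present in 7.26%. HYAL2 had no match to any of the 5 motifs in this window. AP-1 sites (7.71% of all promoters) and the aryl hydrocarbon receptor core (5.51%) were found in none of the 7. These matches describe letters, not bound sites. RefSeq's starts of these 3 genes lie inside the gene bodies given above, that of HAS3 the farthest and that of CEMIP the least. Each window is therefore that of an inner start.

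Against the vehicle, the called changes of these genes were falls throughout. Over the 18 extract groups, 50 of 126 gene-by-group tests were called, all of them lower in the extract. Of the 318168 such tests over all genes 18.9% were called, in both directions. Under other settings 2 rises of members were called as well, CEMIP at the high dose of Astragali Radix and HAS3 at that of Samul-tang. The count was 5, 2 and 4 of the 7 at the low, medium and high dose of Astragali Radix, where 40.7%, 16.6% and 68.2% of all 17676 tested genes were called. It was 3, 3 and 2 of the 7 at the low, medium and high dose of Cinnamomi Cortex, where 13.2%, 13% and 16.3% of all 17676 tested genes were called. For Sagunja-tang it was 2, 3 and 5 of the 7 at the low, medium and high dose of that formula, where 14.1%, 13.5% and 22.7% of all 17676 tested genes were called. These shares of all genes are the background against which the members' counts stand, and at the top dose of Astragali Radix it already covers most genes. By direction, 3814 of all genes rose and 3387 fell at the low dose of Astragali Radix. At the medium dose of Sibjeondaebo-tang 408 rose and 610 fell. The count was 2, 1 and 3 of the 7 at the low, medium and high dose of Samul-tang, where 11.3%, 12.1% and 19.7% of all 17676 tested genes were called. It was 1, 2 and 5 of the 7 at the low, medium and high dose of Palmul-tang, where 9.84%, 10.2% and 20.3% of all 17676 tested genes were called. For Sibjeondaebo-tang it was 2, 1 and 4 of the 7 at the low, medium and high dose of that formula, where 9.61%, 5.76% and 23.1% of all 17676 tested genes were called. The median log2 change over all tested genes lay between -0.062 and 0.017 in the 28 comparisons of the fit. At the low dose of Astragali Radix the count of 5 was 1 (HAS2) without libraries 1 and 2 and 0 in the fit of that group and the vehicle alone. The total of 50 was 77 without libraries 1 and 2 of low-dose Astragali Radix, 76 in fits of the compared groups alone, and 39 to 50 with 1 library left out at a time. Over all genes the share called rose as well without those libraries, from 18.9% to 32.2%. More genes were also called in most fits of the compared groups alone.

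**Figure D1:**
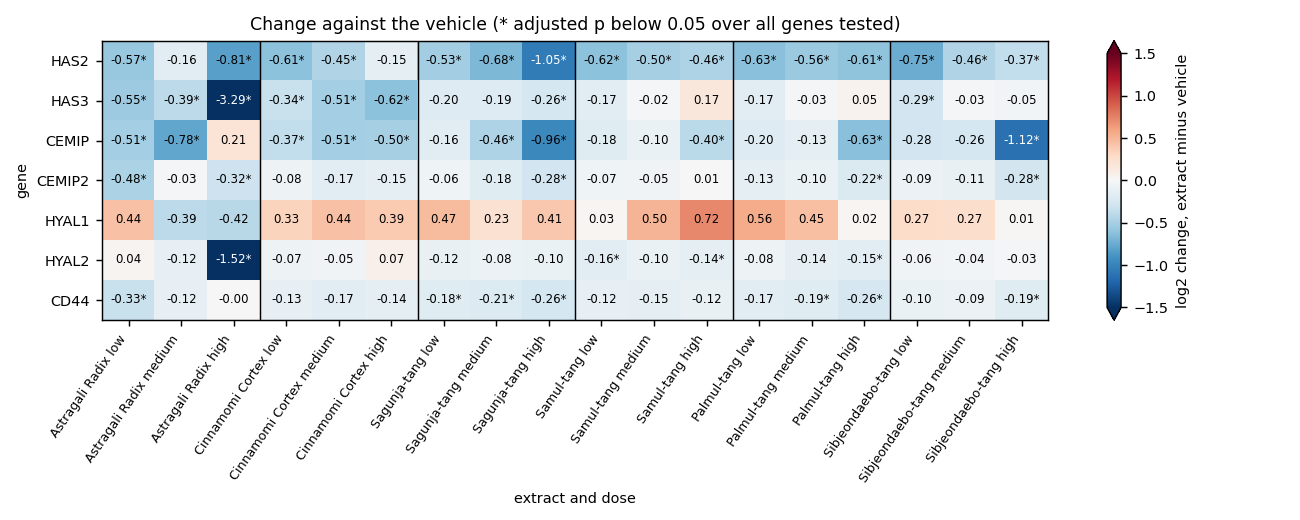
Log2 change (extract minus vehicle, colour and number) of the 7 tested genes, in rows, at each extract and dose, in columns, with 3 libraries a group; a star marks an adjusted p below 0.05 over all 17676 genes tested. HAS2 is below 0 in all 18 columns, HAS3 and HYAL2 have their lowest values at the high dose of Astragali Radix (-3.29 and -1.52, beyond or at the end of the colour scale), and CEMIP has its lowest at the high dose of Sibjeondaebo-tang (-1.12).

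HAS2 (chr8:121612116-121641390) was lower than in the vehicle under every extract. All 54 extract libraries of the fit lay below the lowest of the 3 vehicle libraries, and the fall was called in 16 of the 18 groups. How many of all tested genes lay apart from the vehicle like this was not counted, here or for other groups that did not overlap. Among genes described below, NF2, LAYN and HMMR had log2 changes under 0 in all 18 groups. TNFAIP6 and HEXA had changes over 0 in all 18. The lowest level was at 500 µg/mL of Sagunja-tang, with 46.8, 45.8 and 43.4 CPM, against 93.1, 94.6 and 93.7 CPM in the vehicle, a log2 change of -1.05 ± 0.10 (± SE). At 220 µg/mL of Astragali Radix HAS2 had 49.5, 51.3 and 60.1 CPM, a change of -0.81 ± 0.10. At 8.8 µg/mL of Astragali Radix the libraries had 72.8, 39.5 and 77.1 CPM, a change of -0.57 ± 0.10, and of -0.27 ± 0.061 without libraries 1 and 2, called both times. The exceptions to a called fall were Astragali Radix at 44 µg/mL with 79.6, 85.1 and 86.7 CPM (-0.16 ± 0.10) and Cinnamomi Cortex at 500 µg/mL with 85.8, 86.2 and 82.2 CPM (-0.15 ± 0.10). Those groups did not overlap with the vehicle either, and both changes were called once libraries 1 and 2 of low-dose Astragali Radix were left out (-0.15 ± 0.042 and -0.14 ± 0.042). Already at 20 µg/mL the formulas had mean levels of 65.1 ± 1.95 CPM (Sagunja-tang), 60.5 ± 2.11 CPM (Palmul-tang), 61.1 ± 1.39 CPM (Samul-tang) and 56.0 ± 1.63 CPM (Sibjeondaebo-tang; SD, n = 3 each). In the order of the 19 group means the vehicle was the highest and high-dose Sagunja-tang the lowest, and 14 of the 18 pairs of neighbours in that order overlapped. A drop present at the lowest dose of every extract and the other sample code of the vehicle cannot be told apart.

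With dose, HAS2 moved in opposite directions in different extracts. A dose step is the mean log2 change per 5-fold dose, from the low to the high dose. In Sagunja-tang HAS2 fell, with means of 65.1 ± 1.95, 58.8 ± 0.445 and 45.4 ± 1.75 CPM at 20, 100 and 500 µg/mL (SD, n = 3 each) and a dose step of -0.26 ± 0.050. In Cinnamomi Cortex it rose, with 61.5 ± 2.37, 68.6 ± 2.5 and 84.7 ± 2.19 CPM and a dose step of 0.23 ± 0.050. In Sibjeondaebo-tang it rose as well, with 56.0 ± 1.63, 68.4 ± 1.70 and 72.4 ± 1.83 CPM (0.19 ± 0.050). The high and low doses of these 3 extracts did not overlap. Samul-tang (0.080 ± 0.050) and Palmul-tang (0.014 ± 0.050) had no called step. In Astragali Radix the step of -0.12 ± 0.051 was called although the groups overlapped: library 2 of the low dose had 39.5 CPM beside 72.8 and 77.1 in the others; without libraries 1 and 2 it was -0.27 ± 0.031. With 1 library left out at a time the Astragali Radix step ranged from -0.25 to -0.034 and lost its call 4 times, it was not called in the fit of the compared groups alone, and the Cinnamomi Cortex step lost its call 3 times.

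**Figure D2:**
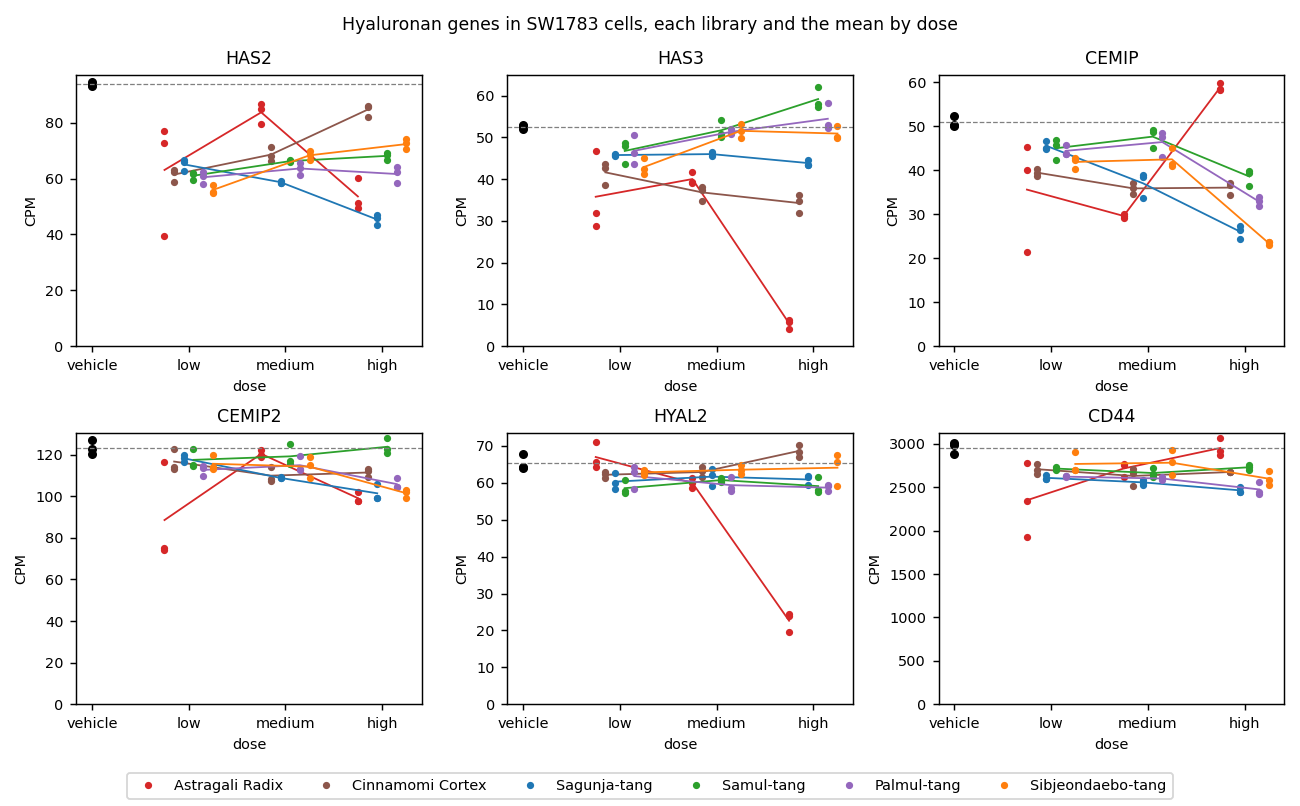
CPM of the 6 well-detected member genes (one panel each, y axis from 0) in the 3 vehicle libraries (black, dashed line at their mean) and in each library of the 6 extracts at the low, medium and high dose (points, lines through the means). All HAS2 points lie below the vehicle, and HAS3 and HYAL2 have their lowest points at the high dose of Astragali Radix. The CEMIP lines of every extract but Astragali Radix end lower than they start, that of Sagunja-tang falling at each step. The CEMIP line of Astragali Radix ends above the vehicle.

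HAS3 had its lowest level at the top dose of Astragali Radix. At 220 µg/mL of Astragali Radix it had 5.82, 4.19 and 6.33 CPM, against 52.0, 53.0 and 52.8 CPM in the vehicle, a log2 change of -3.29 ± 0.11, which leaves 0.102 of the vehicle level. The groups lay far apart, and this was the largest change of any member in the 18 groups. At 44 µg/mL it had 39.2, 39.2 and 41.7 CPM (-0.39 ± 0.090, called), and at 8.8 µg/mL 28.8, 31.8 and 46.8 CPM (-0.55 ± 0.092, called; -0.15 ± 0.077 and not called without libraries 1 and 2). The largest difference lay between the medium and the high dose, with a dose step of -1.37 ± 0.057 (-1.57 ± 0.051 without libraries 1 and 2 of the low dose). In Cinnamomi Cortex HAS3 also fell at each dose: the means were 41.6 ± 2.64, 36.8 ± 1.73 and 34.3 ± 2.22 CPM at 20, 100 and 500 µg/mL, and the changes -0.34 ± 0.090, -0.51 ± 0.090 and -0.62 ± 0.091. Its groups did not overlap with the vehicle, and the low-dose call was lost in 1 of 6 fits without 1 library. Its dose step there was -0.14 ± 0.045 and was not called.

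Under the formulas HAS3 was called lower than the vehicle in 2 of 12 groups. The call of low-dose Sibjeondaebo-tang (-0.29 ± 0.090) was lost in 5 of 6 fits without 1 library. In Samul-tang the means were 46.8 ± 2.67, 51.7 ± 2.18 and 59.2 ± 2.60 CPM with a called dose step of 0.17 ± 0.045, and in Sibjeondaebo-tang 42.9 ± 1.88, 51.6 ± 1.59 and 50.9 ± 1.62 CPM with a called step of 0.12 ± 0.045. Both were small, and each lost its call when any 1 of the 6 libraries was left out. Palmul-tang had 46.8 ± 3.50, 51.4 ± 0.690 and 54.5 ± 3.23 CPM (0.11 ± 0.045, not called). Sagunja-tang had 45.8 ± 0.205, 46.0 ± 0.523 and 43.9 ± 0.738 CPM; its high dose was called against the vehicle (-0.26 ± 0.090), and that call was lost when any 1 library of the comparison was left out. Over the 18 groups HAS3 was called lower in 8. Its highest mean was in high-dose Samul-tang (0.17 ± 0.089 against the vehicle), which was not called in the fit of all groups but was called higher in the fit of that group and the vehicle alone (0.17 ± 0.042) and without libraries 1 and 2 of low-dose Astragali Radix (0.18 ± 0.052). In the order of the group means 15 of 18 pairs of neighbours overlapped.

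CEMIP fell with the dose of 3 formulas. At 500 µg/mL of Sibjeondaebo-tang it had 23.6, 23.7 and 23.0 CPM, against 52.4, 50.4 and 50.1 CPM in the vehicle (-1.12 ± 0.11). At 500 µg/mL of Sagunja-tang it had 24.5, 26.5 and 27.3 CPM (-0.96 ± 0.11), and at 500 µg/mL of Palmul-tang 31.8, 33.0 and 33.9 CPM (-0.63 ± 0.11). All 3 groups lay below every vehicle library. In Sagunja-tang CEMIP was lower at each higher dose, with 45.6 ± 1.03, 37.0 ± 2.92 and 26.1 ± 1.45 CPM at 20, 100 and 500 µg/mL and a dose step of -0.40 ± 0.054. In Sibjeondaebo-tang the low and medium doses overlapped, at 41.9 ± 1.34 and 42.5 ± 2.23 CPM, before 23.4 ± 0.347 CPM at the high dose (step -0.42 ± 0.055). Palmul-tang had 44.4 ± 1.24, 46.4 ± 2.98 and 32.9 ± 1.03 CPM (step -0.22 ± 0.054, which lost its call in 2 of 6 fits without 1 library).

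In Samul-tang CEMIP had 45.0 ± 2.47, 47.7 ± 2.31 and 38.6 ± 1.90 CPM, with a called fall against the vehicle at the high dose (-0.40 ± 0.11) and a step of -0.11 ± 0.053 that was not called. Cinnamomi Cortex had 39.5 ± 0.756, 35.9 ± 1.29 and 36.1 ± 1.48 CPM, all called lower than the vehicle (-0.37 ± 0.11, -0.51 ± 0.11 and -0.50 ± 0.11), though the low-dose call was lost in 3 of 6 fits without 1 library. In Astragali Radix the levels of CEMIP turned with dose. The libraries had 21.5, 40.0 and 45.4 CPM at 8.8 µg/mL, 29.6, 29.1 and 30.1 CPM at 44 µg/mL and 58.3, 59.9 and 58.5 CPM at 220 µg/mL. The medium dose lay below every vehicle library and was called (-0.78 ± 0.11). The high dose lay above every vehicle library, and its change of 0.21 ± 0.11 was not called with all libraries, but was called without libraries 1 and 2 of the low dose (0.21 ± 0.048). The dose step was 0.36 ± 0.054, and 0.18 ± 0.034 without those libraries, called both times, but 0.36 ± 0.13 and not called in the fit of the compared groups alone. A high minus low difference does not describe a course that turns in between. In the order of the 19 group means, high-dose Astragali Radix was the highest, the vehicle the second and high-dose Sibjeondaebo-tang the lowest, and 12 of 18 neighbouring pairs overlapped. The low-dose change of -0.51 ± 0.11 was called with all 3 libraries and not without libraries 1 and 2 (-0.15 ± 0.068).

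CEMIP2 moved less. Of its 18 neighbouring pairs in the order of group means 17 overlapped. It was called lower in 5 of the 18 groups: at the high dose of Astragali Radix with 97.6, 97.6 and 102 CPM (-0.32 ± 0.078), of Sagunja-tang with 99.0, 106 and 99.4 CPM (-0.28 ± 0.077), of Sibjeondaebo-tang with 102, 103 and 99.0 CPM (-0.28 ± 0.077) and of Palmul-tang with 109, 104 and 104 CPM (-0.22 ± 0.077), against 123, 120.3 and 127 CPM in the vehicle. The Palmul-tang call was lost when any 1 library was left out. The remaining call was low-dose Astragali Radix, with 75.1, 74.2 and 116 CPM (-0.48 ± 0.078). There the low values were those of libraries 1 and 2, and without them the change was -0.070 ± 0.052 and not called. No dose step of CEMIP2 was called; the Astragali Radix step of 0.080 ± 0.039 turned to -0.13 ± 0.026 and was called without libraries 1 and 2. Over the means of the 16 groups without Astragali Radix, CEMIP and CEMIP2 had a Pearson r of 0.865, and over all 19 groups 0.356; the groups share the vehicle, the fit and the scaling.

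HYAL2 had 1 large change. At 220 µg/mL of Astragali Radix it had 24.4, 23.9 and 19.7 CPM, against 67.8, 64.2 and 64.0 CPM in the vehicle (-1.52 ± 0.056). The medium dose had 59.9, 58.7 and 61.3 CPM (-0.12 ± 0.053, not called) and the low dose 71.0, 65.8 and 64.2 CPM (0.036 ± 0.053, and -0.011 ± 0.062 without libraries 1 and 2, not called either way), so the fall lay between 44 and 220 µg/mL, as most of that of HAS3 did. The dose step was -0.78 ± 0.028, and -0.76 ± 0.033 without those libraries. The other called falls were in Samul-tang at the low (-0.16 ± 0.053) and high dose (-0.14 ± 0.053) and in high-dose Palmul-tang (-0.15 ± 0.053). These 3 are small: none was called once trends on transcript length and GC content were removed, and leaving out 1 library ended the call in 5 or 6 of the 6 fits. Its highest group mean was 68.6 ± 1.62 CPM, in high-dose Cinnamomi Cortex, and 17 of 18 neighbouring pairs in the order of the means overlapped. HYAL1 had 3 to 25 counts in a library, log2 changes between -0.42 and 0.72 with SE of 0.33 to 0.41, and no called change. Unlike the other members its changes were mostly above 0, with 2 of the 18 groups below 0 and a median of 0.36. In 25 of the 54 extract libraries it was above the highest vehicle library. At this depth changes of that size were not detectable.

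CD44 stayed abundant in every group, between 1931 and 3072 CPM in the extract libraries, against 2984, 2879 and 3009 CPM in the vehicle. In 50 of the 54 extract libraries it was below the lowest vehicle library, and the share of all genes like this was not counted. All 18 neighbouring pairs in the order of group means overlapped. It was called lower in 7 groups, which were all 3 doses of Sagunja-tang (-0.18 ± 0.060, -0.21 ± 0.060 and -0.26 ± 0.060 from the low to the high dose), the medium and high doses of Palmul-tang (-0.19 ± 0.060 and -0.26 ± 0.060), high-dose Sibjeondaebo-tang (-0.19 ± 0.060) and low-dose Astragali Radix (-0.33 ± 0.060). In fits without 1 library the call was lost in 6 of 6 at the low dose of Sagunja-tang and the medium dose of Palmul-tang, in 4 of 6 at high-dose Sibjeondaebo-tang and in 3 of 6 at medium-dose Sagunja-tang. The low-dose Astragali Radix libraries had 2337, 1931 and 2784 CPM, and without libraries 1 and 2 the change was -0.073 ± 0.043 and not called. At 220 µg/mL of Astragali Radix, where HAS3 and HYAL2 fell most, CD44 had 3072, 2869 and 2916 CPM, a change of -0.0024 ± 0.060. The Astragali Radix dose step of CD44 (0.16 ± 0.030) was called and was 0.033 ± 0.022 and not called without libraries 1 and 2, nor was it called in the fit of the compared groups alone. These are counts of the whole gene: its splice forms were not analysed here.

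Of 42 dose steps of the 7 genes, 13 were called. They were 5 of 7 in Astragali Radix, where 70% of all tested genes had a called step, 1 of 7 in Cinnamomi Cortex (0.441% of all genes), 2 of 7 in Sagunja-tang (3.78%), 1 of 7 in Samul-tang (1.41%), 1 of 7 in Palmul-tang (3.68%) and 3 of 7 in Sibjeondaebo-tang (21.3%). CEMIP had 3 called falls and 1 called rise, HAS2 2 falls and 2 rises, and HAS3 1 fall and 2 rises. The 13 became 20 without libraries 1 and 2 of low-dose Astragali Radix, while the share of all dose steps called over all genes went from 16.8% to 23.0%.

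The formulas share herbs, and at 500 µg/mL they were compared with each other. Sagunja-tang stood lower than Samul-tang in 4 of the 7 genes, with 4.7% of all tested genes called. HAS2 had 46.8, 45.8 and 43.4 CPM in Sagunja-tang, against 69.3, 68.5 and 66.7 CPM in Samul-tang (-0.59 ± 0.10). HAS3 had 44.7, 43.5 and 43.4 CPM in Sagunja-tang, against 58.0, 57.4 and 62.2 CPM in Samul-tang (-0.43 ± 0.089). For both synthases the groups did not overlap. CEMIP had 24.5, 26.5 and 27.3 CPM in Sagunja-tang, against 39.5, 36.4 and 39.9 CPM in Samul-tang (-0.56 ± 0.11), and CEMIP2 99.0, 106 and 99.4 CPM in Sagunja-tang, against 123, 128 and 121 CPM in Samul-tang (-0.29 ± 0.077), again without overlap, though the CEMIP2 call was lost in 4 of 6 fits without 1 library. Palmul-tang, which combines both, had 58.4, 62.3 and 64.3 CPM of HAS2, called above Sagunja-tang (0.44 ± 0.10), the only called member among the 7 where 0.916% of all genes were called; the call was lost in 3 of 6 fits without 1 library. Against Samul-tang, Palmul-tang had 0 called members by edgeR and by DESeq2 (1.69% of all genes were called by edgeR; 4 of the 7 had an unadjusted p below 0.05), and its CEMIP2 differed by -0.23 ± 0.077. In HAS2, HAS3, CEMIP and CEMIP2, the genes called between Sagunja-tang and Samul-tang, the mean of Palmul-tang lay between theirs, as it did in CD44. In HYAL2 it was below both (58.7 CPM, against 60.9 in Sagunja-tang and 59.1 in Samul-tang). The same held for HYAL1, with few counts (0.324 CPM, against 0.423 and 0.524).

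Sibjeondaebo-tang differed from Palmul-tang in CEMIP: 23.6, 23.7 and 23.0 CPM in Sibjeondaebo-tang, against 31.8, 33.0 and 33.9 CPM in Palmul-tang (-0.49 ± 0.11). CEMIP was the 1 called member of the 7, with 5.45% of all tested genes called. HAS2 had 74.1, 72.6 and 70.5 CPM in Sibjeondaebo-tang, against 58.4, 62.3 and 64.3 CPM in Palmul-tang (0.23 ± 0.10, not called, although the libraries did not overlap). Sagunja-tang and Samul-tang share a sample code, as do Palmul-tang and Sibjeondaebo-tang, whereas Palmul-tang and the formulas it combines do not. The 6 calls among 28 became 15 without libraries 1 and 2 of low-dose Astragali Radix, 14 in fits of the compared groups alone and 10 with trends on length and GC content removed. Calls over all genes rose under each of these settings too. Without those libraries they went from 831 to 2866 (Sagunja-tang against Samul-tang) and from 162 to 805 (Palmul-tang against Sagunja-tang). They went from 299 to 1532 for Palmul-tang against Samul-tang and from 964 to 4288 for Sibjeondaebo-tang against Palmul-tang.

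**Figure D3:**
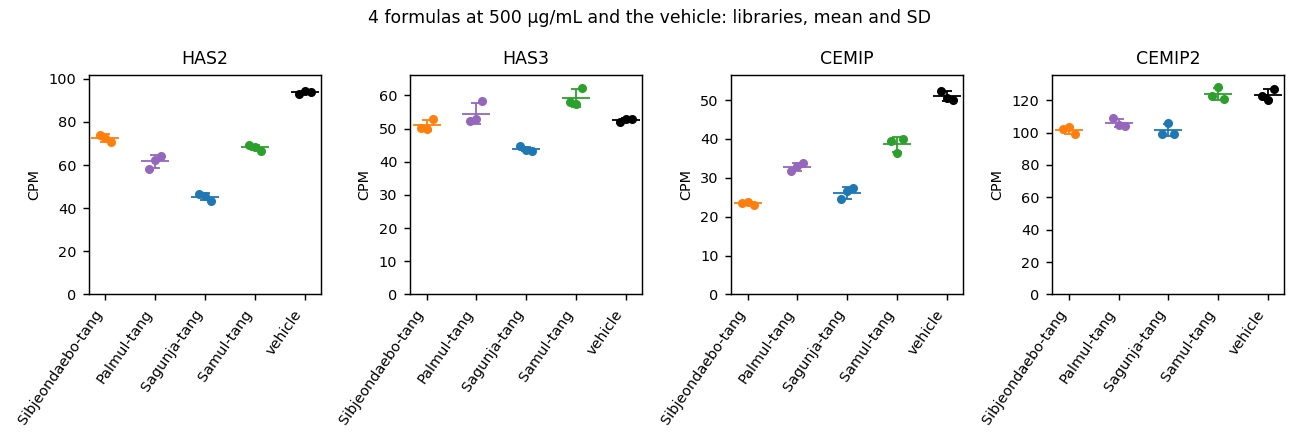
CPM (y axis, from 0) of HAS2, HAS3, CEMIP and CEMIP2 in the 3 libraries of each formula at 500 µg/mL and of the vehicle (points), with the mean and SD (bars). Sagunja-tang is lowest in HAS2 and HAS3, Sibjeondaebo-tang is lowest in CEMIP, and HAS2 and CEMIP of all 4 formulas lie below the vehicle.

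The genes around the synthases were read from 4 lists of 53 genes, of which 35 passed the filter on low counts. The lists were also written with earlier results of these data known, and their genes were named mainly for a small adjusted p. The p-values printed for list genes therefore describe a choice from these data and are not independent support. The first holds 9 enzymes around the supply of the UDP-glucuronic acid and UDP-N-acetylglucosamine from which hyaluronan is made. Among them AMDHD2 acts against that supply, by removing the acetyl group from an intermediate. At 220 µg/mL of Astragali Radix all 9 rose while HAS2 and HAS3 fell, with a median log2 change of 1.11 beside -0.062 over all 17676 genes tested, of which 5763 rose and 6289 fell in that comparison. GFPT1, the rate-limiting enzyme of the hexosamine pathway, had 265 ± 5.37 CPM in the extract, against 93.8 ± 0.682 CPM in the vehicle (1.5 ± 0.056, adjusted p = 3.67e-27 by edgeR's quasi-likelihood test). UGDH, which makes UDP-glucuronic acid, had 404 ± 14.6 CPM in the extract, against 134 ± 2.78 CPM in the vehicle (1.59 ± 0.084, edgeR adjusted p = 1.52e-21). Later steps of the hexosamine pathway moved likewise. UAP1 had 344 ± 31.1 CPM in the extract, against 159 ± 3.37 CPM in the vehicle (1.11 ± 0.070, edgeR adjusted p = 1.04e-18), and PGM3 277 ± 6.49 CPM in the extract, against 123 ± 4.46 CPM in the vehicle (1.18 ± 0.077, edgeR adjusted p = 3.14e-18; mean ± SD, n = 3 each). With the dose of Astragali Radix 8 of the 9 rose, by 0.91 ± 0.042 per step for UGDH and 0.77 ± 0.028 for GFPT1. Without libraries 1 and 2 of the low dose 8 rose as well, by 0.80 ± 0.028 for UGDH and 0.65 ± 0.026 for GFPT1. The UDP-sugars also feed other glycans, so the list is not specific to hyaluronan. The rise of all 9 included AMDHD2, so it does not stand for more supply as a whole.

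In the other extracts few precursor genes were called. With dose, UGDH (0.19 ± 0.041) and PGM3 (0.11 ± 0.038) rose in Sibjeondaebo-tang, and UAP1 fell in Sagunja-tang (-0.15 ± 0.035); no other of these genes had a called step outside Astragali Radix. Against the vehicle, UAP1 was called lower in 8 of the 15 groups without Astragali Radix, with log2 changes of -0.46 to -0.20, the lowest at the high dose of Sagunja-tang (-0.46 ± 0.070), where HAS2 was lowest. AMDHD2, which removes the acetyl group from N-acetylglucosamine 6-phosphate, was called higher in 3 of these groups, and GFPT2 and PGM3 in 1 each.

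The second list holds other genes of hyaluronan breakdown, of which 4 of 6 were tested. HEXA, a subunit of a lysosomal hexosaminidase that takes apart hyaluronan fragments, and HYAL3, a member of the hyaluronidase family, rose at the high dose of Astragali Radix, while HYAL2 fell. HEXA had 145 ± 7.40 CPM in the extract, against 94.4 ± 2.58 CPM in the vehicle (0.62 ± 0.048, edgeR adjusted p = 1.17e-15). HYAL3 was far less abundant, with 9.42 ± 0.923 CPM in the extract, against 6.81 ± 0.530 CPM in the vehicle (0.47 ± 0.10, edgeR adjusted p = 3.87e-05). Both also rose with dose, by 0.24 ± 0.024 per step for HEXA and 0.23 ± 0.049 for HYAL3. Without libraries 1 and 2 of the low dose the steps were 0.28 ± 0.024 for HEXA and 0.33 ± 0.065 for HYAL3, and in the fit of the compared groups alone the HYAL3 step was 0.23 ± 0.10 and not called. GUSB, the lysosomal beta-glucuronidase, had 0.068 ± 0.080 there and was not called. At the low dose it was called (0.24 ± 0.079, edgeR adjusted p = 0.0142), but without libraries 1 and 2 its change was -0.041 ± 0.069 and not called. In the 15 groups without Astragali Radix, HYAL3 was below the vehicle in all 15 and called lower in 7, with called log2 changes of -0.44 to -0.29. Among these calls was each dose of Cinnamomi Cortex (-0.30 ± 0.10, -0.44 ± 0.10 and -0.38 ± 0.10 from low to high). HEXA was above the vehicle in all 15 and called higher in 10, with called changes of 0.15 to 0.28.

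The third list holds 26 other receptors and binding proteins, of which 11 were tested; the usual endothelial and immune receptors LYVE1, STAB1, STAB2 and TLR2 were not, being near 0. At the high dose of Astragali Radix 4 rose and 3 fell, in a comparison where 68.2% of all tested genes were called, so the count is near that background. TNFAIP6 (TSG-6), a secreted protein that cross-links hyaluronan, had 38.4 ± 0.842 CPM in the extract, against 5.56 ± 0.470 CPM in the vehicle (2.78 ± 0.13, edgeR adjusted p = 1.05e-23). It was higher than the vehicle in every extract group, and called so in 15 of the 18. PTX3, which TNFAIP6 binds in hyaluronan-rich matrix, had 85.3 ± 3.30 CPM in the extract, against 31.7 ± 2.40 CPM in the vehicle (1.43 ± 0.078, edgeR adjusted p = 6.38e-21). The falls were HMMR, a hyaluronan-binding protein of the mitotic spindle, with 26.9 ± 3.74 CPM in the extract, against 85.2 ± 0.978 CPM in the vehicle (-1.66 ± 0.088, edgeR adjusted p = 2.46e-21), VCAN, the large hyaluronan-binding proteoglycan versican, with 351 ± 11.7 CPM in the extract, against 659 ± 27.8 CPM in the vehicle (-0.91 ± 0.11, edgeR adjusted p = 1.81e-09), and LAYN, a membrane receptor, with 19.2 ± 1.54 CPM in the extract, against 25.3 ± 1.59 CPM in the vehicle (-0.40 ± 0.071, edgeR adjusted p = 3.15e-06). With dose, TNFAIP6 rose by 1.12 ± 0.062 per step of Astragali Radix (edgeR adjusted p = 8.11e-21), and TLR4, a receptor that hyaluronan fragments can signal through, by 0.42 ± 0.063 (edgeR adjusted p = 1.17e-07). Without libraries 1 and 2 of the low dose these steps were 1.11 ± 0.055 and, for TLR4, 0.13 ± 0.051, both called. In Sibjeondaebo-tang VCAN fell with dose (-0.30 ± 0.057), as CEMIP did. In Astragali Radix the VCAN step was -0.46 ± 0.022 without libraries 1 and 2 of the low dose, while that of CEMIP was a rise. Against the vehicle, LAYN was called lower in 14 of the 15 groups without Astragali Radix, with called log2 changes of -0.42 to -0.23. HMMR was called lower in 3 of these groups and VCAN in 1.

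The fourth list holds partners of CD44, 11 of 12 tested. At the high dose of Astragali Radix, where CD44 itself had no called change, 7 rose and 3 fell, beside 68.2% of all tested genes called. SPP1 (osteopontin, a secreted CD44 ligand) had 31.1 ± 3.07 CPM in the extract, against 4.19 ± 0.433 CPM in the vehicle (2.89 ± 0.12, edgeR adjusted p = 6.75e-25). ADAM17, a protease that sheds CD44, had 132 ± 2.05 CPM in the extract, against 47.9 ± 1.24 CPM in the vehicle (1.47 ± 0.087, edgeR adjusted p = 1.17e-19). ADAM10, another CD44 sheddase, went the other way, with 158 ± 2.89 CPM in the extract, against 240.0 ± 6.07 CPM in the vehicle (-0.61 ± 0.088, edgeR adjusted p = 5.12e-08), as did NF2 (merlin), with 83.0 ± 6.72 CPM in the extract, against 140.3 ± 2.66 CPM in the vehicle (-0.76 ± 0.055, edgeR adjusted p = 1.79e-16). MSN (moesin), which ties CD44 to actin, rose by 0.31 ± 0.050 at that dose and by 0.36 ± 0.025 per dose step (edgeR adjusted p = 4.11e-17; 0.25 ± 0.023 without libraries 1 and 2 of the low dose). In the 15 groups of the other 5 extracts MSN was called lower in 14, EZR (another gene of this list) in 14 and NF2 in 15. Their log2 changes there were -0.41 at the lowest. SPP1 rose with dose in Sagunja-tang (0.25 ± 0.063), Palmul-tang (0.27 ± 0.063) and Sibjeondaebo-tang (0.36 ± 0.064), the 3 formulas in which CEMIP fell with dose. In Astragali Radix SPP1 rose too (1.41 ± 0.062 per step), but there the CEMIP step was a rise (0.36 in the fit of all groups). Over all lists, 172 of 630 tests against the vehicle were called (27.3%), beside 18.9% of all tests in those comparisons, and 43 of 210 dose steps (20.5%), beside 16.8%. Without libraries 1 and 2 of low-dose Astragali Radix these were 306 (48.6%), beside 32.2% of all tests, and 94 (44.8%), beside 23.0%.

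**Figure D4:**
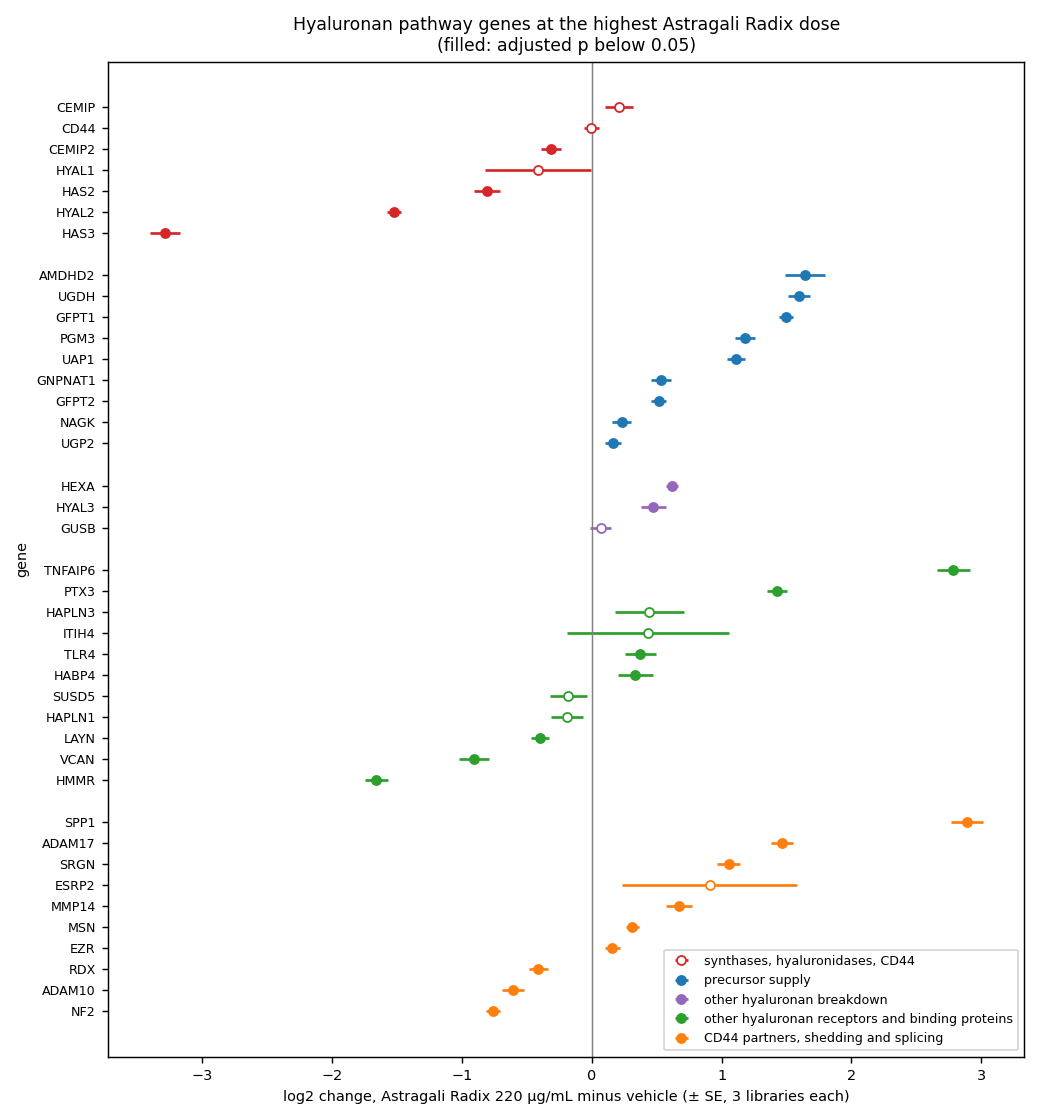
Log2 change (220 µg/mL of Astragali Radix minus vehicle, x axis, with SE; 3 libraries each) of the 7 tested member genes and of genes of the 4 lists (y axis, coloured by list; filled points have an adjusted p below 0.05). All 9 genes of the precursor list (AMDHD2, which acts against that supply, included) lie above 0, while HAS3, HYAL2 and HAS2 lie below it and CD44 lies at it.

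For each tested member the 3 genes with the most similar course were taken, by Pearson correlation of mean log2 CPM over the 16 groups without Astragali Radix, among 11201 genes of at least 5 CPM. For CEMIP they were CDH6 (r = 0.975), BNC2 (0.943) and PTPRB (0.941). For HAS2 they were STC1 (r = 0.924), FRMD6 (0.903) and KCNK3 (0.9), and for HAS3 TIPARP (r = 0.923), STC2 (0.892) and SERPINB2 (0.891). STC1 and STC2 encode the stanniocalcins, and TIPARP is a known target gene of the aryl hydrocarbon receptor. For CEMIP2 they were LINC00641 (r = 0.929), MBNL1 (0.925) and IGFBP5 (0.921), for HYAL2 TNFRSF21 (r = 0.912), ERLIN1 (0.901) and HS3ST3A1 (0.833), and for CD44 EXT1 (r = 0.938), PER1 (0.931) and CDC25B (0.925). For HYAL1, with its few counts, the closest was the gene ENSG00000179979 (r = 0.857). The 16 groups share 1 vehicle group and 1 scaling, so these are descriptions and have no p. Over all 19 groups only MBNL1 stayed among the 3 genes most like its member (CEMIP2); TIPARP had an r of -0.165 with HAS3 and CDH6 one of -0.115 with CEMIP. HAS3 and HYAL2 likewise had an r of -0.54 over the 16 groups and of 0.909 over 19, the 3 groups added being those of Astragali Radix, at whose top dose both fell.

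Rehmanniae Radix Preparata had 1 library a dose, so its values have no replicate check. HAS2 had 50.1, 56.3 and 56.1 CPM at 20, 100 and 500 µg/mL, below every vehicle library as in the other extracts. HAS3 had 47.8, 41.2 and 63.9 CPM, CEMIP 42.4, 42.7 and 45.2 CPM, and HYAL2 59.6, 62.2 and 59.5 CPM. CEMIP2 had 113, 109 and 119 CPM and CD44 2604, 2536 and 2786 CPM in the same order. HAS3 at 500 µg/mL was above every vehicle library, as in 6 of the 54 libraries of the other extracts.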

How the data were processed

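mRNA of SW1783 cells was sequenced in 60 libraries with a directional kit and 100 bp paired-end reads, per the labels' protocols. The authors deposited RSEM expected counts per gene and library. Per the submitters' processing notes the tools included RSEM 1.3.3 and STAR 2.7.3a for counting and alignment to hg38, after Trim Galore 0.6.5 and FastQC 0.11.9; annotation release and strand setting are not given in the sources used here, and RSEM shares reads between overlapping or similar genes. The table has 60675 genes and 279 columns, of which 219 belong to no library analysed here and were not used.

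Expected counts were rounded (10684 genes had values that were not whole). With R 4.3.3 and edgeR 4.0.16, genes passing filterByExpr (17676) were scaled by TMM and fitted with 1 mean per group over 57 libraries of 19 groups. Quasi-likelihood F tests gave 28 comparisons: 18 with the vehicle, 6 dose steps and 4 between formulas. P-values were adjusted by Benjamini-Hochberg over all tested genes and called below 0.05. SEs were taken from the log2 change and its F statistic. CPM use TMM-scaled totals. Library totals of 19793387 to 37152410 leave counting error small for every member but HAS1 and HYAL1.

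Members and lists were chosen with earlier results of these data known. The genes named were the 8 members, up to 4 genes per list with the smallest adjusted p in each kind of comparison, and the 3 genes most like each member. LAYN, ADAM10 and EZR, the receptors near 0 and further comparisons of list genes were named after their values were seen. Some genes that the rule names are counted in their lists but not reported here. The code was tested on simulated data. Alternatives were relative log expression scaling, no filter on low counts, DESeq2 1.42.0, the replicate number as a block, the compared groups alone, length and GC trends removed, each library left out, and libraries 1 and 2 of low-dose Astragali Radix left out. The lowest chi-square per gene between libraries of a group was 2.22, so no library was treated as a duplicate.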

Additional observations from a re-analysis of the deposited data

Results flagged for a closer look

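At 500 µg/mL, 6 differences between formulas were called when 1 formula was set against another (edgeR's quasi-likelihood test, adjusted over all genes). The members were chosen with earlier results of these libraries known, so these differences are a description. Sagunja-tang lay below Samul-tang in HAS2 (log2 -0.59 ± 0.10, ± SE), HAS3 (-0.43 ± 0.089), CEMIP (-0.56 ± 0.11) and CEMIP2 (-0.29 ± 0.077), in all 3 libraries of each. Palmul-tang lay above Sagunja-tang in HAS2 (0.44 ± 0.10), and Sibjeondaebo-tang lay below Palmul-tang in CEMIP (-0.49 ± 0.11). Palmul-tang and Sagunja-tang carry different sample codes, so formula and code cannot be told apart there. Groups of 3 libraries were not searched gene by gene for outlying libraries; libraries 1 and 2 of low-dose Astragali Radix stood apart over all genes, as given above.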

How the results depend on the processing

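Counts of called members depended mostly on which libraries set the estimate of spread; among values called with all libraries or under the alternative, 2 changed sign, both without libraries 1 and 2 of low-dose Astragali Radix. There the CEMIP2 dose step of Astragali Radix turned to -0.13 and GUSB at its low dose to -0.041; the cause was not tested. Without these libraries, members called were 77 against the vehicle, 20 with dose and 15 between formulas, and list genes 306 and 94. Of all tests over all genes, 32.2% against the vehicle and 23.0% with dose were called, beside 18.9% and 16.8% with all libraries. By comparison the members called were then 1 (Astragali Radix low), 5 each (Astragali Radix medium, Cinnamomi Cortex medium and high, Sagunja-tang low and medium, Samul-tang low and high, Palmul-tang low), 4 each (Palmul-tang medium, Sibjeondaebo-tang low), 3 (Sibjeondaebo-tang medium), 2 (Samul-tang medium), 2 each for the dose steps of Cinnamomi Cortex and Palmul-tang, 3 for that of Samul-tang, 5 for that of Sibjeondaebo-tang, 3 each for Palmul-tang against Sagunja-tang and Sibjeondaebo-tang against Palmul-tang, and 4 for Palmul-tang against Samul-tang.

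In fits of the compared groups alone the totals were 76 (vehicle), 14 (formulas), 299 and 70 (list genes against the vehicle and with dose). Low-dose Astragali Radix then had 0 members called by edgeR, and 0 of 15715 genes, with 1782 at an unadjusted p below 0.05. There were 5 each (Astragali Radix medium, Cinnamomi Cortex medium and high, Sagunja-tang low and medium, Samul-tang low and high, Palmul-tang low), 4 (Palmul-tang medium), 3 (Sibjeondaebo-tang medium) and 2 (Samul-tang medium). The dose steps had 2 each (Astragali Radix, Cinnamomi Cortex, Palmul-tang) and 3 (Samul-tang), and the formulas 3 (Palmul-tang against Sagunja-tang), 4 (against Samul-tang) and 2 (Sibjeondaebo-tang against Palmul-tang).

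With length and GC trends removed there were 10 calls between formulas and 66 of list genes with dose. Members called were 4 (Astragali Radix medium), 5 each (Cinnamomi Cortex medium and high), 2 (Samul-tang medium), 3 (Palmul-tang low), 4 (Sibjeondaebo-tang low), 2 (Sibjeondaebo-tang medium), and 3, 1 and 2 for Palmul-tang against Sagunja-tang, Palmul-tang against Samul-tang and Sibjeondaebo-tang against Palmul-tang. Without the low-count filter they were 1 each (Sagunja-tang low, Samul-tang low, Palmul-tang medium) and 3 each (Palmul-tang high, Palmul-tang against Sagunja-tang). DESeq2 gave 2 each (Samul-tang medium, Palmul-tang low, Palmul-tang against Sagunja-tang), and relative log expression scaling 2 (Palmul-tang low). A replicate block gave 2 each (Palmul-tang low, Palmul-tang against Sagunja-tang); the median r of deviations between groups was 0.00913 for same-numbered and -0.00503 for other libraries, and 1 of 513 same-numbered pairs had an r over 0.1, so the numbers were not taken to pair the libraries. Yet 38 of 57 libraries were closest to their own number, more than the 1 in 3 that unrelated numbers would give. The replicate number is also the middle part of every sample code. Whether libraries of the same number were handled together is not stated.

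With 1 library left out, the totals were 39 to 50 (vehicle), 12 to 13 (dose), 4 to 7 (formulas), and 132 to 182 and 40 to 45 (list genes). By comparison the members called were 0 to 1 (dose steps of Cinnamomi Cortex and Palmul-tang, Palmul-tang against Sagunja-tang), 1 to 3 (Cinnamomi Cortex low), 1 to 2 (Sibjeondaebo-tang low, Sibjeondaebo-tang against Palmul-tang), 2 to 3 (Sagunja-tang medium, Samul-tang high), 3 to 4 (Sagunja-tang against Samul-tang, Sibjeondaebo-tang high) and 4 to 5 (dose step of Astragali Radix). In every such fit they were 0 for the dose step of Samul-tang, 1 each at Sagunja-tang low, Samul-tang low and Palmul-tang medium, 2 for the dose step of Sibjeondaebo-tang, 3 at Palmul-tang high and 4 at Sagunja-tang high. Across all genes, the number called moved by over 1.5 times in most comparisons without libraries 1 and 2 of low-dose Astragali Radix, in fits of the compared groups alone and with length and GC trends removed (534 without the 2 libraries, against 78 with all, for the dose step of Cinnamomi Cortex). Relative log expression scaling and DESeq2 moved the median of all genes by at most 0.024 log2, and leaving out the low-count filter by at most 0.027. Depth limits HAS1 and HYAL1.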
